A study of Rattus norvegicus with 48 samples.

Results

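Transcript levels of 10 genes of autophagy and endoplasmic reticulum (ER) turnover (Retreg1, Gabarapl1, Gabarap, Map1lc3a, Map1lc3b, Atg7, Sqstm1, Becn1, Ulk1 and Lyst) were examined in rats given RDX, a nitramine explosive. The genes were picked partly by their log2 values in liver at 4 and 48 h after 3 mg/kg, so their differences in that arm are given as a description and without a test. A member was measured where a probe set of the array carried its symbol alone. That held for 9 of the 10 genes, with 19 probe sets among the 31042 tested and 9 among the 14217 genes so named. The single probe set annotated to Map1lc3b also carries the symbol Map1lc3b2, so Map1lc3b was left out of all counts.

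Macroautophagy encloses cytoplasm in a double membrane, the autophagosome, and delivers it to lysosomes. Ulk1 is the kinase that starts the process, Becn1 belongs to the lipid kinase complex that nucleates the membrane, and Atg7 is the enzyme that activates the small proteins of the Atg8 family for coupling to lipid. Gabarapl1, Gabarap, Map1lc3a and Map1lc3b are such Atg8 proteins. Sqstm1 (p62) and Retreg1 (FAM134B) bind them as receptors: Sqstm1 brings in ubiquitinated cargo, and Retreg1 marks sheets of ER for turnover, which is called ER-phagy. Lyst is a large BEACH domain protein needed for normal size and traffic of lysosome-related organelles. Liver is a tissue in which autophagy is known to follow feeding and fasting, and neurons depend on it for clearing old proteins.

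The animals were male Sprague-Dawley rats of 300 to 400 g, housed in pairs under 12 h of light and 12 h of dark. They took 3 or 18 mg/kg RDX by mouth in a gel capsule, once, at doses chosen to stay below seizures. Brain cortex and liver were taken at 0, 4, 24 or 48 h, which made 8 groups per tissue and 16 in all, each with 3 arrays. No vehicle group at the later times is given in the labels, so each later group was set against the 0 h group of its own dose and tissue. Separate animals are not named for the 3 arrays of each group, so p-values measure only the spread between arrays, which may be technical. Values are the deposited log2 expression on Affymetrix rat arrays. The brightest probe set over the 24 arrays of a tissue stands for a gene, and levels of different genes are not compared.

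The tissues were told apart by interneuron transcripts, while the hepatocyte mean overlapped between them. The mean of 7 hepatocyte transcripts lay between 10.70 and 13.25 in the liver arrays. In cortex, 5 interneuron transcripts averaged 9.46 to 10.05, against 4.78 to 5.5 in liver. In 7 of the 24 cortex arrays the hepatocyte mean was above 8, up to 10.95. In liver, replicate 2 of the 3 mg/kg 0 h group and replicate 1 of the 18 mg/kg 4 h group had a narrow spread of values (SD over probe sets of 1.49 and 1.38). They also had the lowest hepatocyte means, 11.81 and 10.70. These arrays touch many of the values below. The first was the lowest of its group for 7 of the 9 genes and the second for 9 of the 9. Values without them are given beside many of the results they move.

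RefSeq (GRCr8) held a promoter for 8 of the 10 genes, all but Map1lc3a and Becn1. The 250 bases before the annotated start are printed for Retreg1, Gabarapl1 and Lyst, because these genes had the largest differences between 48 and 0 h after 3 mg/kg in liver. They are on the plus strand, at chr2:78065874-78066123 for Retreg1, chr4:164666082-164666331 for Gabarapl1 and chr17:93225290-93225539 for Lyst. Capitals mark the GC box GGGCGG, the CCAAT box CCAAT and the cAMP response element TGACGTCA, each on either strand, and runs of capitals in Gabarapl1 hold overlapping GC boxes.
Retreg1: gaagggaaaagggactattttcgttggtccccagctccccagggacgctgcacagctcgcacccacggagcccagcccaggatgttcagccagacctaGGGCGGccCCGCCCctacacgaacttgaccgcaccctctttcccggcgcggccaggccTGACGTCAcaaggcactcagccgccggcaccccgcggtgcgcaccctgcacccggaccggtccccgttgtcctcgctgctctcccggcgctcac
Gabarapl1: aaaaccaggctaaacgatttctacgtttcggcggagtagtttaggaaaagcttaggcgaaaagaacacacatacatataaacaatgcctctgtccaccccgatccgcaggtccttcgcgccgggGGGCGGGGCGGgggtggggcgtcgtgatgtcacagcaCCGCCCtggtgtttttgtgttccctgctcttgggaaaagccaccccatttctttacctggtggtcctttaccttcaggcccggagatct
Lyst: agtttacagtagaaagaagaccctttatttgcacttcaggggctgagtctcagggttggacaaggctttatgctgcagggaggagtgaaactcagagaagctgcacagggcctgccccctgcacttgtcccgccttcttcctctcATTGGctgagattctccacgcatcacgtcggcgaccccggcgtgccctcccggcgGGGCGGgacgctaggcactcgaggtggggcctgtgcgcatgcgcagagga
The GC box was present in 6 of the 8 promoters, against 30.5% of 33469 rat promoters of this length. The CCAAT box was present in 2 (34% of all promoters). The cAMP response element, searched after the Retreg1 sequence was seen, was present in Retreg1 alone (1.59% of all). The E-box CACGTG, the sequence shared by the lysosomal gene element and the clock, and the FoxO motif GTAAACA were in 0 of the 8 windows (5.59% and 3.21% of all). These matches describe letters only.

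Retreg1 had the widest range of all 9 genes in liver. At 0 h in the 3 mg/kg arm its log2 levels were 7.24, 6.58 and 8.52 in replicates 1, 2 and 3. At 4 h they were 10.65, 10.47 and 10.01, at 24 h 9.40, 9.09 and 9.57, and at 48 h 9.93, 9.91 and 9.88. Every later array thus lay above every 0 h array. The differences from 0 h were 2.93 at 4 h (7.61-fold), 1.91 at 24 h and 2.46 at 48 h. Without replicate 2 of the 0 h group they were 2.50, 1.47 and 2.03. The other Retreg1 probe set, dimmer at a liver mean of 6.07, did not show these differences, with 0.19 at 4 h, -0.07 at 24 h and -0.03 at 48 h.

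Gabarapl1, an Atg8 protein, was lowest at 0 h and highest at 48 h in the same arm. Its levels were 7.81, 6.32 and 8.49 at 0 h, 8.96, 9.02 and 8.58 at 4 h, 9.71, 8.74 and 9.72 at 24 h, and 10.55, 9.83 and 10.46 at 48 h. The groups after 0 h did not overlap the 0 h arrays, although replicate 3 at 0 h lay only just below the 4 h arrays. The differences were 1.31, 1.85 and 2.74 (6.68-fold at 48 h), and 0.70, 1.24 and 2.13 without replicate 2 of the 0 h group. Its other probe set moved the same way by less, with 0.38, 0.44 and 0.67.

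Its relatives behaved differently. Map1lc3a, another Atg8 protein, was the one member whose mean was lower by over 0.1 at a later time: 11.56, 11.76 and 10.78 at 0 h, 10.83, 10.86 and 10.82 at 4 h, 9.91, 10.44 and 10.33 at 24 h, and 10.15, 10.09 and 10.07 at 48 h. The arrays of 24 and 48 h lay below all 0 h arrays, while those of 4 h fell within their range. The differences were -0.53, -1.14 and -1.26, and -0.33, -0.94 and -1.06 without replicate 2 of the 0 h group. Gabarap differed by 0.53, 0.56 and 0.93, with 0 h levels of 11.44, 9.60 and 11.27, so the low array was the one with the narrow spread. Only its 48 h arrays (11.62 to 11.76) lay above the 0 h group. Without that array the Gabarap differences were -0.05, -0.02 and 0.35, so the first 2 turned sign.

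Lyst was late rather than early. Its levels were 7.03, 5.28 and 7.32 at 0 h and 6.68, 7.24 and 7.10 at 4 h, which overlapped. They were 8.66, 7.83 and 8.37 at 24 h and 8.85, 8.63 and 9.19 at 48 h, all above the 0 h arrays. The differences were 0.46, 1.74 and 2.34 (5.08-fold at 48 h). Without replicate 2 of the 0 h group the first turned to -0.17, and the others were 1.11 and 1.71. The dimmer Lyst probe set gave -0.18, -0.29 and -0.13.

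Ulk1, the initiating kinase, stood at 7.40, 7.02 and 8.34 at 0 h. It was between 8.54 and 8.67 at 4 h, 8.51 and 8.93 at 24 h, and 8.42 and 9.06 at 48 h, above the 0 h arrays each time. The differences were 1.03, 1.19 and 1.25, and 0.75, 0.91 and 0.97 without the same 0 h array. The dimmer Ulk1 probe set gave -0.18, -0.46 and -0.32, so the probe sets of Ulk1 disagreed in sign.

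The remaining members differed little or inconsistently. Sqstm1 differed by 0.46, 0.30 and 0.51, and its arrays overlapped the 0 h arrays (11.01 to 11.85) at every time. Under quantile normalisation the values at 24 and 48 h were -0.13 and -0.0009, so no direction is given for Sqstm1. Atg7 differed by 0.28, 0.12 and 0.27 and Becn1 by 0.18, -0.04 and 0.01, both overlapping throughout. The Becn1 value at 4 h was -0.14 under quantile normalisation. Over the alternatives other than leaving out a single array, Becn1 ranged from -0.43 to 0.14 at 24 h and from -0.465 to 0.17 at 48 h. Without replicate 2 of the 0 h group the differences were 0.27, 0.10 and 0.32 for Sqstm1, 0.11, -0.05 and 0.10 for Atg7, and 0.27, 0.04 and 0.09 for Becn1.

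Counted together, the arrays did not overlap those of 0 h for 3 of the 9 genes at 4 h (3 above), where 20.6% of all probe sets did not overlap and 0.0226% passed limma. At 24 h this was 5 of 9 (4 above and 1 below), against 18.9% of all probe sets, with 0% passing. At 48 h it was 6 of 9 (5 above and 1 below), against 36.3%, with 9.34% passing. Nothing is read from these counts, since the genes were picked on this arm. The median difference of the 9 genes was 0.46, 0.56 and 0.93, beside -0.08, -0.09 and -0.16 over all probe sets. Markers of other cell types moved in the same arm. The mean of the 5 measured Kupffer cell or microglia transcripts ranged from 8.64 to 9.77 at 0 h and from 10.07 to 10.18 at 48 h, and 2 of the 5 were called higher. The hepatocyte mean ranged from 11.81 to 12.85 at 0 h and from 13.03 to 13.25 at 48 h, with 0 of 7 called. For 3 cholangiocyte transcripts it went from 6.27 to 6.79 at 0 h to 7.14 to 7.39 at 48 h, with 1 called higher. For 6 leukocyte transcripts the ranges were 6.63 to 7.06 and 7.01 to 7.46, with 2 called higher and 1 lower, and for 4 stellate cell transcripts 6.85 to 7.43 and 7.28 to 7.56, with 1 called higher. The 3 endothelial transcripts averaged 7.90 to 9.49 and 9.41 to 9.47, with 0 called. Transcripts of the clock, 7 in number, averaged 6.98 to 7.24 at 0 h and 8.10 to 8.53 at 4 h, with 3 called higher. The part of all these markers in the members' values was not tested. In tissue samples, fewer cells of a type and less RNA per cell cannot be told apart.

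**Figure D1:**
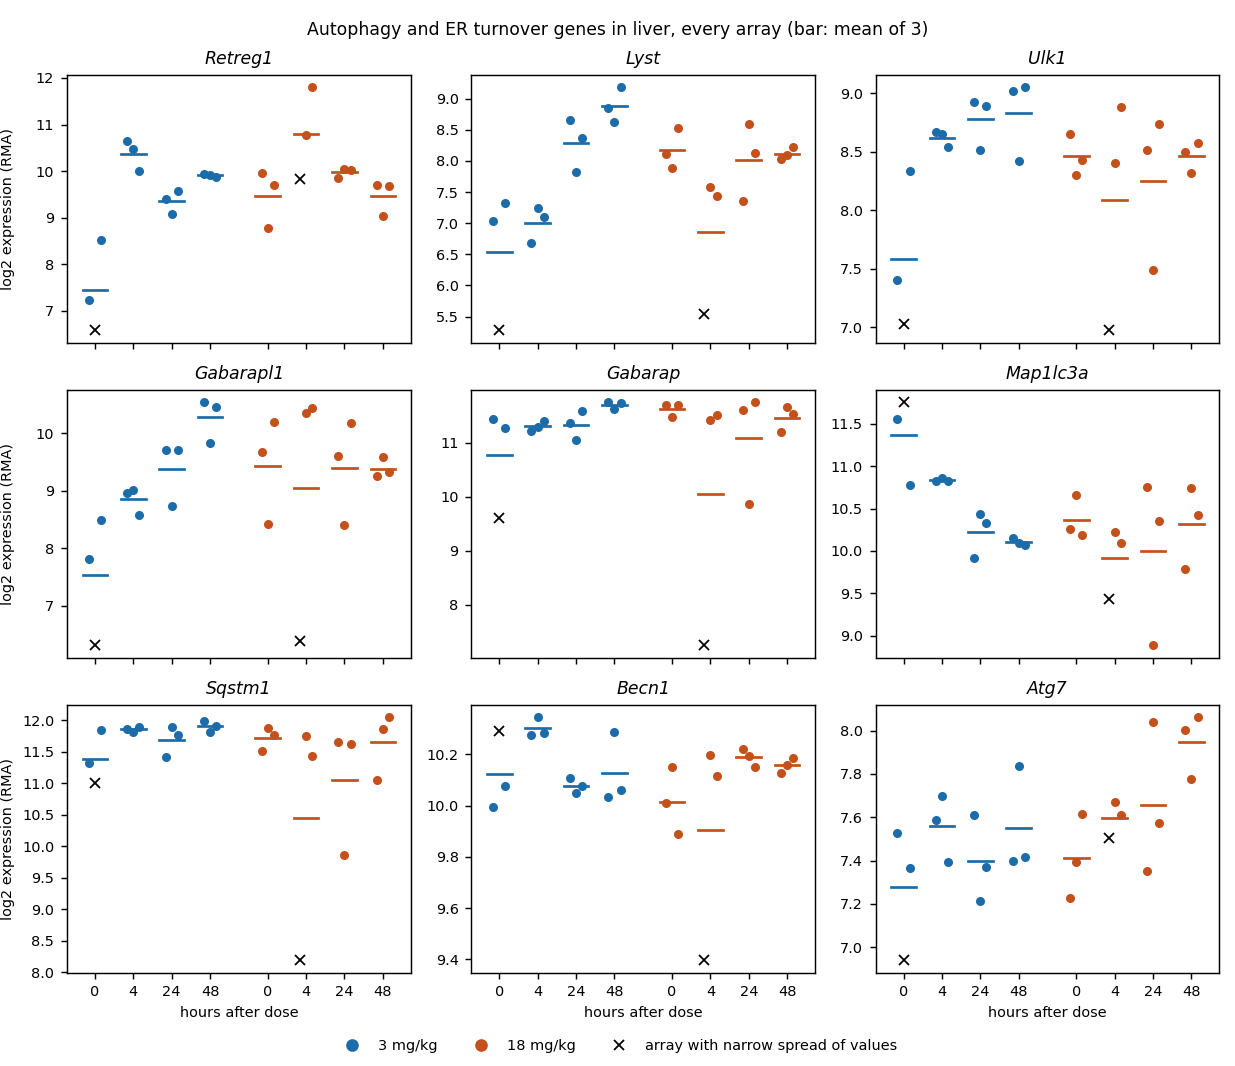
Log2 expression (vertical axis) of the 9 measured genes in every liver array by hours after dose (horizontal axis); points are arrays, blue for 3 mg/kg and orange for 18 mg/kg, horizontal bars are means of 3 arrays, and crosses mark the 2 arrays with a narrow spread of values. Retreg1, Gabarapl1, Ulk1, Lyst and Atg7 have their lowest group mean in the 3 mg/kg 0 h group.

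Liver had a 0 h group in each dose arm, and these are set side by side as a description. The genes were picked partly on differences from the 3 mg/kg 0 h group. Means of that group that lie apart from other groups are thus partly built in by the choice. For the genes with the largest differences, the 3 mg/kg 0 h group stood apart from the 18 mg/kg one, and nothing is read from this. Retreg1 was at 9.95, 8.77 and 9.70 in the 18 mg/kg 0 h group, 2.03 above the 3 mg/kg 0 h mean and without overlap. The same difference was 1.89 for Gabarapl1 (9.67, 8.42 and 10.20, overlapping by a single array), 1.63 for Lyst (8.11, 7.89 and 8.52, no overlap) and 0.87 for Ulk1 (8.65, 8.30 and 8.43, overlapping). For Map1lc3a it was -0.998 (10.25, 10.66 and 10.18), again without overlap. Gabarap was 0.86 higher there (11.71, 11.47 and 11.71), without overlap. Sqstm1, Atg7 and Becn1 differed by 0.33, 0.13 and -0.11. At 3 mg/kg 0 h Gabarap stood at 11.44, 9.60 and 11.27, with the low value in replicate 2, the array of narrow spread. That array was also the lowest of its group for Retreg1, Gabarapl1, Lyst and Ulk1, and the highest for Map1lc3a. Differences without it, and the share of all probe sets without overlap, were not computed between the 0 h groups.

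For Retreg1, Gabarapl1, Lyst, Ulk1 and Map1lc3a, the later 3 mg/kg groups lay closer to the 18 mg/kg 0 h group than the 3 mg/kg 0 h group did. At 24 h Retreg1 differed from the 18 mg/kg 0 h group by -0.12, Gabarapl1 by -0.04, Lyst by 0.11 and Map1lc3a by -0.14. At 48 h the values were 0.44 for Retreg1, 0.85 for Gabarapl1, 0.71 for Lyst, 0.37 for Ulk1 and -0.26 for Map1lc3a. At 4 h Retreg1 was 0.90 above that 18 mg/kg group and Lyst 1.17 below it, while Gabarapl1 differed by -0.58 and Map1lc3a by 0.47. The log2 gap of the 3' over the 5' control probe set of actin, a measure of RNA quality, ranged from 3.29 to 4.38 at 3 mg/kg 0 h. At 18 mg/kg 0 h it ranged from 2.90 to 3.77. What separates the 0 h groups, RNA quality included, was not tested.

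**Figure D2:**
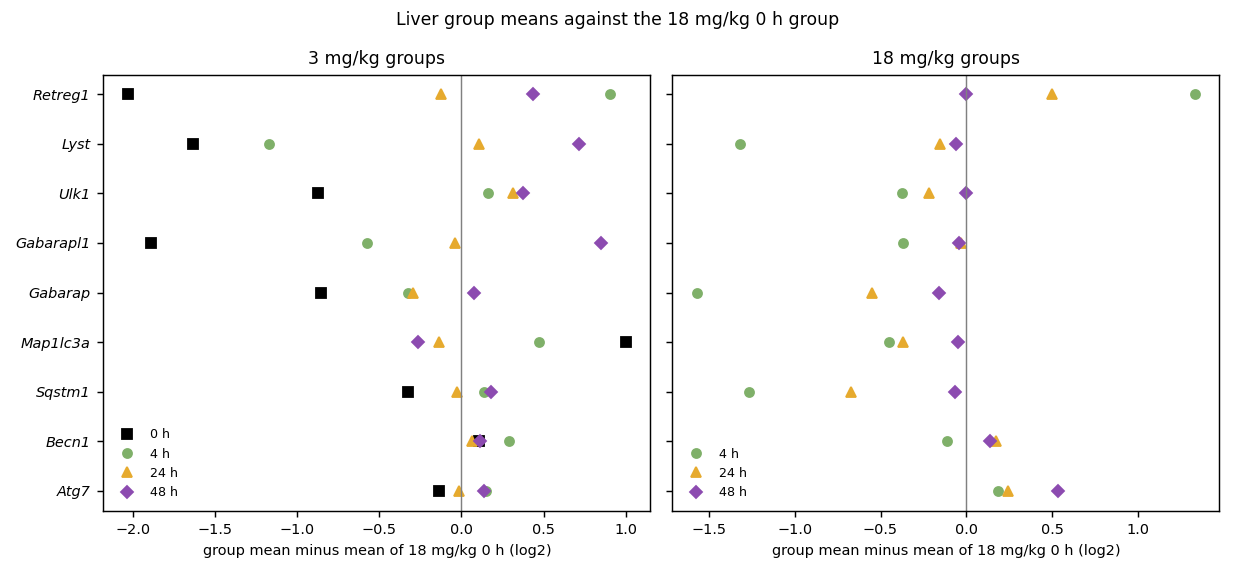
Mean log2 level of each liver group minus the mean of the 18 mg/kg 0 h group (horizontal axis) for the 9 genes (vertical axis), with 3 mg/kg groups on the left and 18 mg/kg groups on the right; marker shape and colour give the time. The black squares of 3 mg/kg 0 h lie 2.03 below 0 for Retreg1 and 1.89 below 0 for Gabarapl1, while the 24 h triangles of the same arm lie at -0.12 and -0.04.

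The 18 mg/kg arm in liver was not used to pick the genes, and asks whether the higher dose moved them. In limma, 0 of 9 members passed at 4 h (adjusted p of at least 0.435, and unadjusted p under 0.05 for 4 of 9), where 0.0258% of all probe sets passed. At 24 h 0 of 9 passed (0 of 9 at an unadjusted p under 0.05, 0% of all probe sets), and at 48 h 0 of 9 (1 of 9, with 0.0966% of all passing). The arrays did not overlap those of 0 h for 1 of 9 members at 4 h, 0 at 24 h and 1 at 48 h, against 11.4%, 9.74% and 9.54% of all probe sets.

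Retreg1 was highest of all liver groups at 4 h after 18 mg/kg, at 9.83, 10.78 and 11.81, against 9.95, 8.77 and 9.70 at 0 h. The arrays overlapped through replicate 1, the array with the narrow spread. The change was 1.33 ± 0.43 (SE, n = 3 per group) with limma adjusted p = 0.435, and 1.82 with adjusted p = 0.355 without that array. Adjusted p ranged from 0.112 to 0.614 over the alternatives and arrays left out. The dimmer Retreg1 probe set gave 0.97 with its 4 h arrays above those of 0 h. At 24 and 48 h Retreg1 was at 9.85, 10.04 and 10.03 and at 9.70, 9.03 and 9.68, differences of 0.50 and -0.0034 from 0 h. In both arms the Retreg1 mean at 4 h was the highest of its arm. The clock transcripts in the 18 mg/kg arm averaged 7.10 to 7.19 at 0 h and 7.91 to 8.57 at 4 h, with 2 of 7 called higher, and their part was not tested.

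Lyst went the other way at 4 h after 18 mg/kg, with 5.55, 7.57 and 7.44 against 8.11, 7.89 and 8.52 at 0 h. All 4 h arrays lay below the 0 h arrays. The difference was -1.32 ± 0.47 (SE, adjusted p = 0.435 in limma), and -0.67 without replicate 1. Lyst then stood at 7.35, 8.60 and 8.12 at 24 h and at 8.04, 8.09 and 8.23 at 48 h, overlapping the 0 h arrays.

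Gabarap and Sqstm1 had large differences at 4 h after 18 mg/kg that came from a single array. Gabarap was at 7.25, 11.41 and 11.52 and Sqstm1 at 8.19, 11.75 and 11.43, with replicate 1 far below the others. The limma differences of -1.57 and -1.26 had adjusted p = 0.435 and 0.437. Dimmer probe sets went the other way, with 0.61 for Gabarap and 0.43 and 0.79 for Sqstm1, while the remaining Sqstm1 probe set gave -0.24. For the dimmer probe sets that were higher, replicate 1 was the highest 4 h array. It stood at 6.89 against 5.77 and 6.04 for Gabarap. For Sqstm1 it stood at 6.49 against 5.67 and 5.65, and at 6.52 against 5.33 and 5.45. Both genes were also low in replicate 2 at 24 h, at 9.87 for each against 11.61 and 11.76 for Gabarap and 11.66 and 11.62 for Sqstm1 in the other arrays. Over the 24 liver arrays their levels went together, with Pearson r of 0.92, and 0.78 over the 22 arrays with a normal spread. Gabarapl1 was at 6.38, 10.36 and 10.44 at 4 h, again with replicate 1 apart. Without replicate 1 the 4 h differences were -0.16 for Gabarap, -0.13 for Sqstm1 and 0.97 for Gabarapl1, which had been -0.37 with it (limma adjusted p = 1 for each without it).

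Ulk1 and Map1lc3a overlapped their 0 h arrays at every time in this arm. Ulk1 differed by -0.37, -0.22 and 0.0008 at 4, 24 and 48 h, with 6.97, 8.40 and 8.88 at 4 h, and its 4 h value was 0.18 without replicate 1. Map1lc3a differed by -0.45, -0.37 and -0.05, with 10.75, 8.89 and 10.36 at 24 h. Without replicate 2 at 24 h, the array low for Gabarap and Sqstm1 too, Map1lc3a differed by 0.19 and Ulk1 by 0.16, and without replicate 1 at 4 h Map1lc3a differed by -0.21. Becn1 levels ranged only from 9.40 to 10.35 over all 24 liver arrays. Atg7 was 0.54 ± 0.21 (SE) above 0 h at 48 h, with adjusted p = 1 in limma. Its 48 h arrays (8.0, 7.78 and 8.06) lay above those of 0 h (7.23, 7.39 and 7.61). The other Atg7 probe sets moved the same way by less, with means of 6.78 and 4.58 at 0 h and 6.88 and 4.63 at 48 h.

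The doses could be compared in liver at 24 h without the 0 h groups. In limma, 0 of 9 members differed between 18 and 3 mg/kg (0 of 9 at an unadjusted p under 0.05), where 0.087% of all probe sets passed. Retreg1 was 0.62 ± 0.43 (SE) higher at 18 mg/kg and Becn1 0.11. These 2 of 9 had arrays that did not overlap, against 8.98% of all probe sets. The dimmer Retreg1 probe set went the other way, with means of 5.74 at 18 mg/kg and 5.86 at 3 mg/kg.

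Ordered by group mean, Retreg1 in liver ran from 7.45 ± 0.98 (SD, n = 3) at 3 mg/kg 0 h to 10.80 ± 0.99 at 18 mg/kg 4 h. Among neighbours in that order, only the lowest group had arrays apart from the next one, 3 mg/kg 24 h at 9.35 ± 0.25. Gabarapl1 ran from 7.54 ± 1.11 at 3 mg/kg 0 h to 10.28 ± 0.39 at 3 mg/kg 48 h, again with the lowest group alone apart from its neighbour. Lyst had 3 low groups, 3 mg/kg 0 h at 6.54, 18 mg/kg 4 h at 6.85 and 3 mg/kg 4 h at 7.01, and the other groups lay between 8.02 and 8.89. Map1lc3a had its highest means at 3 mg/kg 0 h (11.36 ± 0.52) and 4 h (10.84 ± 0.02), and the other 6 groups lay between 9.92 and 10.37. For Ulk1 every group overlapped its neighbour in the order.

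The genes whose liver pattern was most like that of Retreg1 over the 24 arrays were Cyp4b1 (Pearson r of 0.89, and 0.82 over 22 arrays without those of narrow spread), Hacl1 (0.88), Smap1 (0.87), Fam76b (0.87) and Ppp2r2d (0.87). For Gabarapl1 they were Pdap1 (0.97, and 0.97 over 22 arrays), Btd (0.96), Gstm2 (0.96), Sdhc (0.95) and Dag1 (0.95). Cyp4b1 is a cytochrome P450, Hacl1 a peroxisomal lyase and Sdhc a subunit of mitochondrial complex II. Retreg1 and Gabarapl1 correlated with each other at 0.62 (0.60 over 22 arrays), Gabarapl1 and Ulk1 at 0.87 (0.70). These arrays share groups and array spread, so the values are a description.

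Cortex was not used to choose the genes, and asks whether the brain, where RDX causes seizures at higher doses, showed changes in them. None of the 9 members passed limma in any of the 6 comparisons with 0 h. After 3 mg/kg the smallest adjusted p was 0.343 at 4 h, 0.14 at 24 h and 0.144 at 48 h, with 3, 2 and 2 members at an unadjusted p under 0.05. The share of all probe sets that passed was 0%, 0.0741% and 0%. After 18 mg/kg it was 0.451, 0.824 and 0.132, with 1, 1 and 4 members at an unadjusted p under 0.05, and 0% of all probe sets passed each time. Arrays that did not overlap were found for 2, 1 and 2 of 9 members after 3 mg/kg, against 16.1%, 19.6% and 20.6% of all probe sets. After 18 mg/kg they were found for 0, 0 and 2 members, against 17%, 8.91% and 14.8%.

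Retreg1, the gene with the widest range in liver, was steady in cortex. Its 24 arrays lay between 9.86 and 10.53, with group means from 9.98 to 10.27. Its differences from 0 h were 0.07, 0.08 and 0.04 after 3 mg/kg and -0.16, -0.0003 and 0.08 after 18 mg/kg. Over all cortex arrays Gabarapl1 ranged from 10.83 to 11.75, Ulk1 from 8.76 to 9.33 and Becn1 from 10.39 to 10.72. Map1lc3a was at 11.78, 11.70 and 11.44 at 3 mg/kg 0 h and at 11.02, 11.09 and 11.46 at 48 h. These overlapped through a single array, and its differences were -0.16, -0.33 and -0.45 ± 0.18 (SE) at 4, 24 and 48 h, with limma adjusted p = 0.331 at 48 h. After 18 mg/kg Map1lc3a differed by 0.12, -0.11 and -0.15. Gabarap was at 11.23, 11.06 and 10.87 at 18 mg/kg 0 h and at 10.60, 11.02 and 10.11 at 48 h, which overlapped. Its differences were -0.17, -0.22 and -0.48 ± 0.20 (SE), with adjusted p = 0.245 in limma at 48 h, and 0.27, 0.15 and -0.02 after 3 mg/kg.

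Atg7, the activating enzyme, had the smallest unadjusted p of the 9 genes in each 3 mg/kg comparison. Its levels were 7.16, 7.15 and 7.09 at 0 h, 7.57, 7.39 and 7.57 at 4 h, 7.40, 7.64 and 7.5 at 24 h, and 7.80, 7.96 and 7.63 at 48 h. Every later array lay above the 0 h group, by 0.38 ± 0.11, 0.38 ± 0.11 and 0.66 ± 0.11 on average (SE), with limma adjusted p = 0.343, 0.14 and 0.144. In the 18 mg/kg arm Atg7 started higher, at 7.88, 7.62 and 7.76, and was lower at 48 h, at 7.55, 7.36 and 7.37 (-0.32 ± 0.11, adjusted p = 0.147). The brightest probe set was nearly matched in cortex by another Atg7 probe set, which gave 0.12, -0.20 and -0.07 after 3 mg/kg. The dimmest Atg7 probe set gave 0.52, 0.38 and 0.44, in the direction of the brightest, so the Atg7 probe sets disagreed.

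Lyst and Sqstm1 went in opposite directions in the cortex arms without passing. Lyst was at 8.24, 8.52 and 7.77 at 3 mg/kg 0 h and between 7.59 and 7.97 in all later arrays of that arm. After 18 mg/kg it was at 7.81, 7.56 and 8.09 at 0 h and 8.30, 8.5 and 8.65 at 48 h, all above 0 h (0.66 ± 0.20 SE, adjusted p = 0.132 in limma). Sqstm1 after 18 mg/kg was at 11.61, 11.72 and 11.26 at 0 h and 10.94, 11.46 and 10.94 at 48 h (-0.42 ± 0.15 SE, adjusted p = 0.187).

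Levels of Lyst, Sqstm1 and Gabarap in cortex differed with a measure of RNA quality. Actin has control probe sets near each end of its transcript, and the log2 gap of the 3' over the 5' one, which widens as RNA degrades, exceeded 3 in 10 cortex arrays. Lyst lay between 8.06 and 8.65 in those 10 and between 7.56 and 8.5 in the other 14, with medians of 8.40 and 7.80. Sqstm1 lay between 10.94 and 11.46 against 11.46 and 11.81, with medians of 11.27 and 11.67. Gabarap lay between 10.11 and 11.16 against 10.97 and 11.54, with medians of 10.8 and 11.27. The gap was between 1.65 and 2.73 in the later 3 mg/kg arrays and between 2.08 and 4.61 in the later 18 mg/kg arrays, so it differed between the arms as these genes did. Atg7 had medians of 7.60 and 7.59 in the same arrays. With the gap as a covariate the differences at 48 h after 18 mg/kg were 0.29 for Lyst, -0.11 for Sqstm1 and -0.19 for Gabarap, against 0.66, -0.42 and -0.48 without it. That for Atg7 was -0.31 against -0.32. The gap went with dose and time in these arrays, so RNA quality and dose cannot be told apart by this fit.

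A limma F test over the 3 later times asked whether the cortex changes differed between the doses. It called 0 of 9 members (3 of 9 at an unadjusted p under 0.05) and 0.00322% of all probe sets. Atg7 had the smallest adjusted p, 0.13, with a change after 18 mg/kg that was lower than that after 3 mg/kg by 0.39, 0.52 and 0.99 at 4, 24 and 48 h (coded as -0.39, -0.52 and -0.99). Lyst had differences of 0.74, 0.94 and 1.06 (adjusted p = 0.207 in limma) and Sqstm1 of -0.52, -0.35 and -0.68 (adjusted p = 0.27).

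Calls appeared when arrays were left out. Leaving out the cortex arrays whose hepatocyte mean exceeded 8 kept 2 arrays at 0, 4 and 24 h after 18 mg/kg and 1 at 48 h. Lyst then passed at 4 h (0.73, limma adjusted p = 0.048) and 24 h (0.84, adjusted p = 0.038). The actin gaps of the arrays kept were 2.48 and 1.86 at 0 h, 4.03 and 3.33 at 4 h, and 4.18 and 3.64 at 24 h, so RNA quality and time cannot be told apart there. At 48 h the single array kept, with a gap of 4.61, had to be assumed to vary like the other groups. On that basis Sqstm1 passed at 48 h (-0.73, adjusted p = 0.041), and Lyst and Sqstm1 passed the test of dose by time, which includes that array (adjusted p = 0.014 and 0.042). The same setting called 1289, 1034 and 1751 probe sets at 4, 24 and 48 h and 4098 in the test of dose by time, against 0, 0, 0 and 1 with all arrays. Without replicate 2 at 18 mg/kg 48 h, Gabarap (-0.70, adjusted p = 0.041) and Sqstm1 (-0.59, adjusted p = 0.025) passed at 48 h. The arrays kept there had gaps of 4.61 and 4.39, above all 0 h arrays. The brightest Atg7 probe set passed the test of dose by time without replicate 3 of either 0 h group. Adjusted p in limma was 0.049 without that of 3 mg/kg and 0.039 without that of 18 mg/kg. It passed also without replicate 1 of 18 mg/kg 24 h (adjusted p = 0.024, where Lyst passed too at 0.043) or replicate 2 of 18 mg/kg 48 h (0.024).

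**Figure D3:**
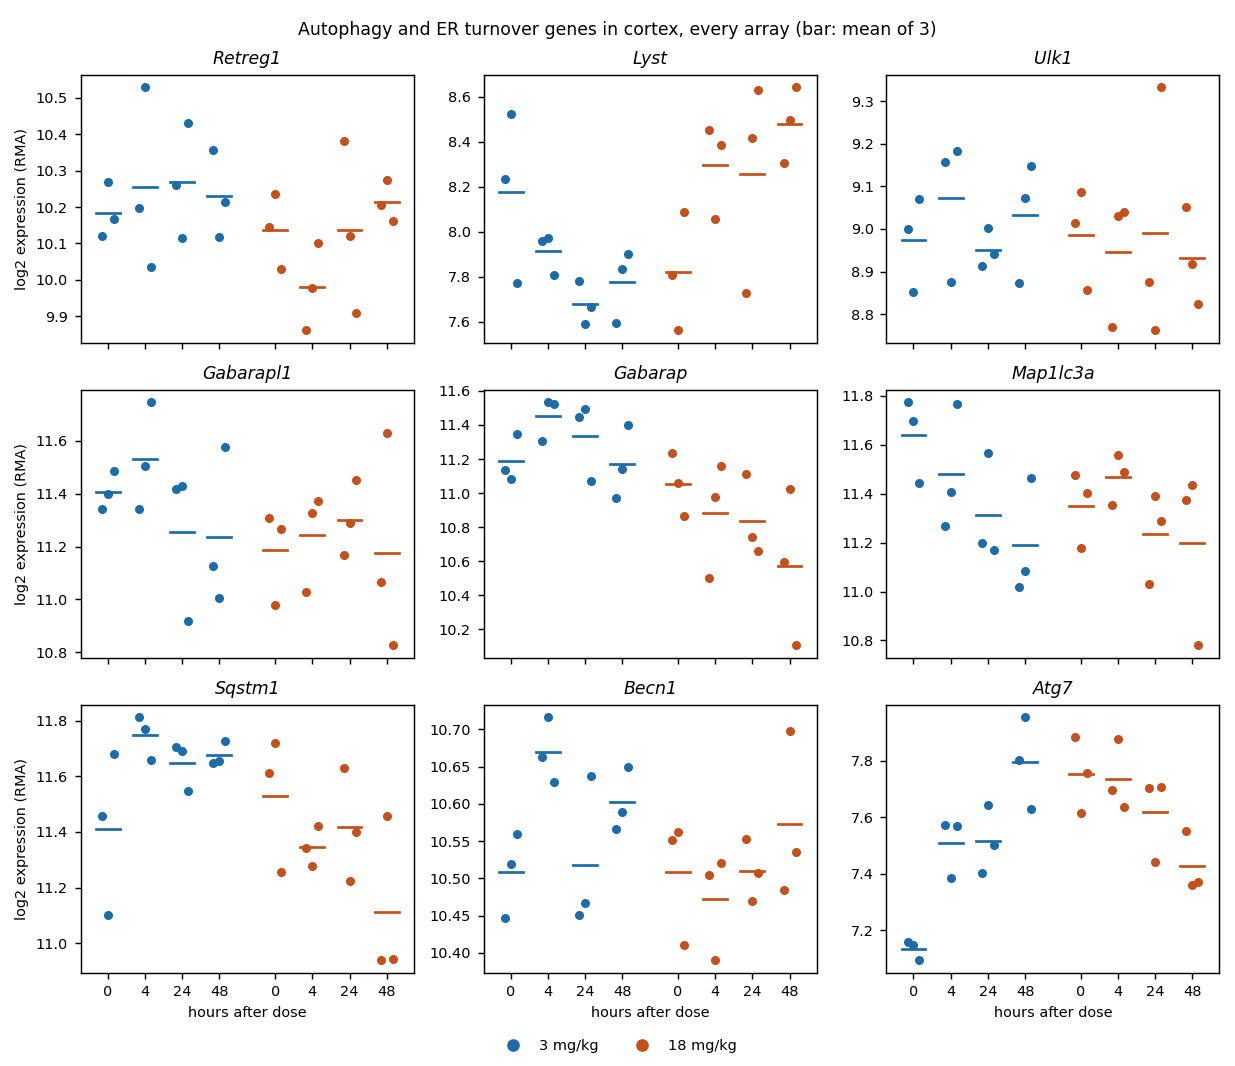
Log2 expression (vertical axis) of the 9 measured genes in every cortex array by hours after dose (horizontal axis); points are arrays, blue for 3 mg/kg and orange for 18 mg/kg, and horizontal bars are means of 3 arrays. Retreg1 stays between 9.86 and 10.53, and Atg7 is lowest in the 3 mg/kg 0 h group (7.09 to 7.16).

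Cortex and liver were compared in the 18 mg/kg arm, which the choice of genes did not use, over 12 arrays of each tissue. The labels do not say whether cortex and liver arrays share animals. They were fitted as independent, so the p-values ignore any such pairing. Of the 9 members 5 were called, all higher in cortex, against 83.5% of all probe sets called (32% higher and 51.5% lower in cortex). Gabarapl1 was 1.91 ± 0.29 (SE, n = 12 per tissue) higher in cortex with adjusted p = 2.3e-07 in limma, and Map1lc3a 1.16 ± 0.15 with adjusted p = 3.6e-09. Both had cortex arrays that lay above every liver array. Ulk1 was 0.65 ± 0.15 higher, Becn1 0.45 ± 0.07, with no overlap, and Lyst 0.42 ± 0.19 (adjusted p = 0.040). The differences of Retreg1 (0.19), Gabarap (-0.22), Sqstm1 (0.13) and Atg7 (-0.03) did not pass. Leaving out the liver array of narrow spread at 4 h, Gabarap passed as lower in cortex (-0.57, adjusted p = 0.0025), and Lyst no longer passed (0.26, adjusted p = 0.141). The Lyst call was also lost when any of 12 other arrays was left out, with differences of 0.34 to 0.42.

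The probe sets of a gene often disagreed between tissues. Gabarapl1 was -0.85 by its dimmer probe set and Lyst -0.32, both called lower in cortex, and Ulk1 -0.13, not called. Retreg1 was -0.76 and Gabarap 1.12 by theirs. The other Sqstm1 probe sets gave -0.88, -0.48 and -0.90, and the other Atg7 probe sets 0.72 and 0.48. Map1lc3a and Becn1 had a single probe set each, so this check was not possible for them.

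**Figure D4:**
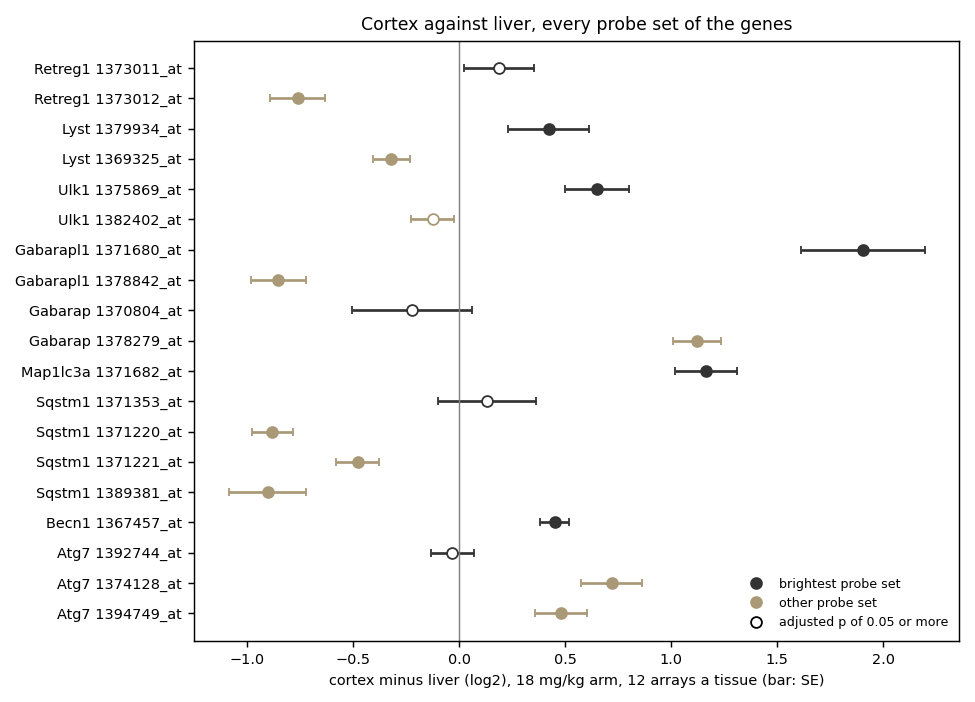
Cortex minus liver log2 difference (horizontal axis) in the 18 mg/kg arm for all 19 probe sets of the 9 genes (vertical axis); dark points are the brightest probe set of a gene, pale points its others, bars are SE, and open points did not pass. Gabarapl1 lies at 1.91 by its brightest probe set and at -0.85 by the other.

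Other genes of the pathway were followed in 7 lists with 121 genes measured: core machinery (23), cargo receptors (11), ER-phagy and ER shaping (13), ER-associated degradation (19), lysosome and fusion (25), control by kinases and transcription factors (25) and BEACH relatives of Lyst (5). These genes were tested in all arms. Passing genes were found at 48 h after 3 mg/kg in liver, where 19 rose (15.7%) and 2 fell (1.65%), against 8.56% and 1.86% of all genes. That comparison shares its arrays with the choice of the members. Counts of single lists are small. They are given as a description beside these shares of all genes, and nothing is read from them. In the other 5 liver comparisons with 0 h, the liver comparison of doses at 24 h, the 6 cortex comparisons with 0 h and the cortex test of dose by time, 0 list genes passed limma.

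Among cargo receptors 3 of 11 rose at 48 h: Ncoa4, the receptor for ferritin, by 2.88 ± 0.59 (SE, limma adjusted p = 0.023), Fundc1, a mitochondrial receptor, by 1.16 ± 0.26, and Tax1bp1, a ubiquitin receptor, by 2.33 ± 0.54. Ncoa4 was at 7.22, 5.30 and 8.08 at 0 h and 9.89, 9.37 and 9.99 at 48 h. In the core machinery 3 of 23 rose, against 8.56% of all genes. They were Uvrag (1.14 ± 0.28) and Atg14 (0.83 ± 0.23), both partners of Becn1, and Wdr45 (1.12 ± 0.33). Uvrag was at 7.64, 7.70 and 7.95 at 0 h and 8.81, 8.77 and 9.12 at 48 h. Of the genes for ER-associated degradation 3 of 19 rose, the ubiquitin-conjugating enzymes Ube2j1 (0.90 ± 0.25) and Ube2j2 (1.04 ± 0.33) and the lectin Erlec1 (0.76 ± 0.23). The ER-phagy list, which holds genes that act as Retreg1 does, had 0 of 13 passing, with a median of 0.08.

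Of the lysosome and fusion list 2 of 25 rose, near the 8.56% of all genes. They were Epg5 (1.25 ± 0.29) and Vps41 (1.20 ± 0.35), which tether vesicles to lysosomes. Stx17, the SNARE of the autophagosome, fell by 1.57. In the control list 8 of 25 rose and 1 fell. Flcn (1.5 ± 0.34) and Fnip1 (0.98 ± 0.22), partners in nutrient sensing at the lysosome, were among those that rose. Tfeb, a transcription factor of lysosomal genes, fell by 0.86, from 8.48, 8.75 and 7.59 at 0 h to 7.29, 7.51 and 7.46. The BEACH list had 0 of 5 passing. Wdr45, Tax1bp1, Ube2j2, Vps41 and Tfeb were named after their values were seen. List medians at 48 h ran from 0.08 to 0.71, beside 0.05 for all genes. In the 18 mg/kg arm at 48 h they ran from -0.24 to 0.01.

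The list counts depended on single arrays, in fits added after the data were seen. Without replicate 2 of the 3 mg/kg 0 h group 0 list genes passed, and without replicates 1, 2 and 3 of the 48 h group in turn 0, 1 and 0 passed. The calls over all probe sets went from 2898 to 0, 0, 148 and 0 in the same fits. Without replicate 1 of the 0 h group 12 rose, and without replicate 3 of it 42 rose and 2 fell. Under quantile normalisation 9 rose and 2 fell, of which 10 were among the 21 called with the deposited values, and without the arrays of narrow spread 8 rose and 1 fell. With the actin gap as a covariate 67 rose and 3 fell, where 46.5% of all probe sets passed.

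**Figure D5:**
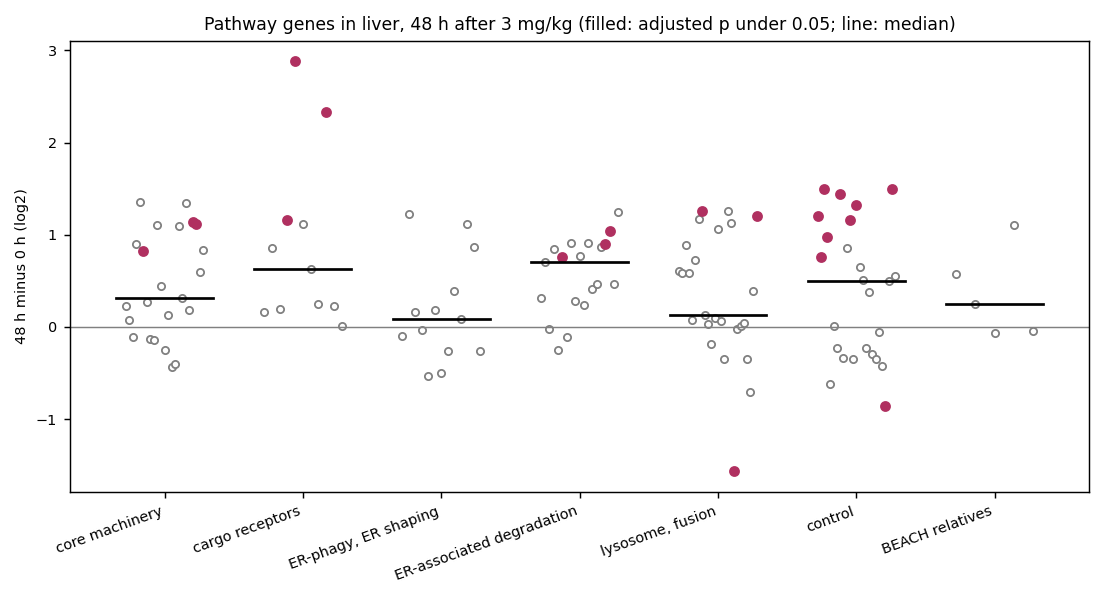
Log2 difference between 48 and 0 h after 3 mg/kg in liver (vertical axis) for the 121 genes of 7 pathway lists (horizontal axis); each point is a gene, filled where adjusted p was under 0.05, and black lines are list medians. Filled points lie above 0 except Stx17 and Tfeb, and the ER-phagy and BEACH lists hold none.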

How the data were processed

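RNA of brain cortex and liver was hybridised to 48 Affymetrix rat arrays. The authors deposited log2 values, made with RMA and Partek per the submitters' processing notes, versions not given in the sources used here. RMA aligns the distributions of the arrays, which hides shifts common to the bulk of transcripts. No scaling was added to the deposited log2 values. The table has 31099 probe sets, and 57 controls were left out; 20826 of the rest had 1 symbol, 436 several and 9780 none. The members and gene lists were chosen with earlier results of these data known, so no pattern here is independent support.

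In limma 3.58.1 (R 4.3.3), each tissue's 24 arrays were fitted with a mean per group, and p-values were adjusted by Benjamini-Hochberg over all probe sets, two-sided, at a threshold of 0.05. No test was run on the members in liver after 3 mg/kg. The tissues were compared in a model of all 48 arrays and 16 group means, by a contrast within the 18 mg/kg arm. The 3 mg/kg arrays thus entered its estimate of the spread. All measured members are described, and of each list the 2 genes with the smallest p past the threshold in a comparison were to be named. Simulated data for the 18 mg/kg 4 h comparisons, with the spread of these arrays, gave recovery in liver of 29% for changes of 1 log2 unit and 92% for 2 units. In cortex it was 80% and 99%. The simulated errors were drawn independently for each probe set, whereas whole arrays stood apart in the real liver data. These shares are thus no measure of what the real comparisons could detect. Array number limits precision.

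Within a tissue, arrays of different groups with the same replicate number did not in general deviate together. Only liver at 24 against 0 h after 3 mg/kg had all 3 correlations of deviations over 0.1 (0.18, 0.42 and 0.21). Cortex and liver arrays of the same dose, time and replicate number were not checked in this way. Alternatives were quantile normalisation, median centring, only probe sets above the median level, a replicate block, the actin 3' to 5' gap as a covariate, leaving out arrays that stand apart, leaving out each array, and other probe sets.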

Additional observations from a re-analysis of the deposited data

How the results depend on the processing

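No member passed in liver after 18 mg/kg, in liver between doses at 24 h, or in cortex after 3 mg/kg under any alternative run. Without the cortex arrays of high hepatocyte mean, 1, 1 and 1 members passed at 4, 24 and 48 h after 18 mg/kg and 2 in the test of dose by time; a single array was left at 48 h, assumed to vary like the other groups. With each array left out in turn, members called ranged from 0 to 2 at 48 h after 18 mg/kg, from 0 to 2 in the test of dose by time, and from 4 to 5 between the tissues. Lyst lost its tissue call under quantile normalisation, median centring, the gap covariate and without the arrays that stand apart. The replicate block changed no member's call; over all probe sets it moved the count of calls from 23 to 9 in cortex at 24 h after 3 mg/kg, from 30 to 17 in liver at 48 h after 18 mg/kg, from 1 to 0 in the test of dose by time and from 0 to 1 in cortex at 4 h after 3 mg/kg. In liver at 48 h after 3 mg/kg, 2898 probe sets passed, against 14423 with the gap covariate, 1671 under quantile normalisation and 1372 without the arrays that stand apart. The gap covariate called 1774 at 4 h, against 7, and 9781 at 24 h, against 0. In cortex at 48 h after 18 mg/kg, 32, 23 and 29 passed under quantile normalisation, median centring and without the dimmer probe sets, against 0, and 671 passed at 24 h after 3 mg/kg without the arrays that stand apart. In liver, the dose comparison at 24 h called 10 to 55 probe sets over the settings, against 27, and the comparison of 48 with 0 h after 18 mg/kg called 17 to 55, against 30; at 4 h it was 4 to 14, against 8. Quantile normalisation turned Becn1 at 4 h after 3 mg/kg in liver to -0.14 and Sqstm1 at 48 h to -0.00092. Becn1 in that arm ranged from -0.43 to 0.14 at 24 h and from -0.465 to 0.17 at 48 h over the alternatives other than leaving out a single array. In liver after 3 mg/kg, sign changes by other probe sets were counted where the difference exceeded the SD of both groups. They were found for Sqstm1 (-0.40 and -0.019 at 4 h, -0.54 and -0.40 at 48 h), Ulk1 (-0.18, -0.46 and -0.32), Retreg1 (-0.068 and -0.034 at 24 and 48 h) and Lyst (-0.29 and -0.13 at 24 and 48 h). Some smaller differences turned sign too. The dimmer Gabarap probe set averaged 5.70 at 0 h and 5.65 at 48 h. Between the tissues other probe sets turned the sign of Retreg1 (-0.76), Gabarapl1 (-0.85), Gabarap (1.12), Atg7 (0.72 and 0.48), Sqstm1 (-0.88, -0.48 and -0.90), Ulk1 (-0.13) and Lyst (-0.32). The causes were not tested. Few arrays per group limit all of these values.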

Other observations

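The probe set that carries both Map1lc3b and Map1lc3b2, which the counts leave out, had liver levels of 7.14, 5.54 and 8.77 at 0 h after 3 mg/kg and 9.23, 9.18 and 9.49 at 48 h. In the 18 mg/kg arm it stood at 9.24, 8.56 and 9.30 at 0 h and 8.76, 9.29 and 8.68 at 48 h. It thus had its lowest group mean, 7.15, in the 3 mg/kg 0 h group, as Retreg1, Gabarapl1, Ulk1, Lyst and Atg7 did. In cortex its lowest mean, 7.39, was at 48 h after 18 mg/kg.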
